A study of Mus musculus with 3 samples.

Results

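Brown fat and oxidative fuel genes were examined in dorsal skin of 4-day-old female BALB/cA mice. The set names 8 genes (Fabp3, Ucp1, Ppargc1a, Cox8b, Cox7a1, Cpt1b, Dio2 and Adrb3), and its members are the array probe sets that the platform annotation pairs with exactly 1 of these symbols. This gave 13 probe sets for 6 of the 8 genes, out of 45037 probe sets and 18193 such genes on the array. Cpt1b, the muscle-type enzyme that admits long-chain fatty acids to mitochondria, was covered only by a probe set shared with other genes. Adrb3, the beta-3 adrenergic receptor of fat cells, had no single-gene probe set. Neither is given a value.

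The study had 1 wild type and 2 uncv null (uncv -/-) mice, all sisters from heterozygous (uncv +/-) parents, with 1 array of total RNA each. Uncovered (uncv) is a spontaneous recessive hair mutation of the mouse, and the comparison asks which transcripts differ in skin at this age. The labels name no treatment and no further allele. The uncv null samples 1 and 2 of the labels are called null mouse 1 and null mouse 2 here. Each value is an RMA expression value on the log2 scale, where 1 unit is a 2-fold difference. The wild type group has no replicate, so its own spread is unknown. Skin identity was plain, with all 10 listed markers of epidermis and dermis above the Y-linked level described below in every array. Their summed signal was 94.7% of wild type in null mouse 1 and 94.6% in null mouse 2, but single markers shifted in opposite directions. Of the 10, 5 were lower in both uncv null arrays, 1 was higher in both and 4 were split. In null mouse 2 the collagen gene Col1a1 differed from wild type by -0.67 and the keratin gene Krt14 by 0.54.

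Brown fat cells burn fatty acids to make heat. Cold and sympathetic signals reach them through Adrb3 and cyclic AMP, Dio2 converts thyroxine to the active thyroid hormone inside the cell, the coactivator Ppargc1a switches on mitochondrial genes, and Ucp1 lets protons leak back across the inner mitochondrial membrane. Fabp3 carries fatty acids through the cytosol, and Cox8b and Cox7a1 are tissue-specific subunits of cytochrome c oxidase, the last complex of the respiratory chain. Fabp3, Cox8b, Cox7a1 and Cpt1b are also well known from heart and skeletal muscle. A thin sheet of muscle and depots of white and brown fat lie under dorsal skin, so all of these tissues can contribute RNA to such a sample.

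The sequences before the start sites of Fabp3, Cox8b and Dio2 are shown because these are the genes whose brighter probe sets lay below wild type in both uncv null arrays by the widest margins. They are the 250 bases before the annotated start, from RefSeq on GRCm38.p6, at chr4:130308488-130308737 on the plus strand for Fabp3, chr7:140900447-140900696 on the minus strand for Cox8b and chr12:90739039-90739288 on the minus strand for Dio2. RefSeq promoters were matched for 6 of the 8 members. Capitals mark an E-box, a site type bound by myogenic and other helix-loop-helix factors, in Fabp3 and Cox8b, an A- and T-rich stretch in Fabp3, and a cyclic AMP response element and a TATA box in Dio2, each spelled out after the sequences.

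Fabp3: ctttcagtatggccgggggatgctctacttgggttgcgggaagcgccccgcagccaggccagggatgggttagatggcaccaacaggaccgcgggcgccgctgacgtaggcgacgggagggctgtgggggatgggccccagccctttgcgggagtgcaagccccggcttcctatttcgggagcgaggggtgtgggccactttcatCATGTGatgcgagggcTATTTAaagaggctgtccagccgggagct
Cox8b: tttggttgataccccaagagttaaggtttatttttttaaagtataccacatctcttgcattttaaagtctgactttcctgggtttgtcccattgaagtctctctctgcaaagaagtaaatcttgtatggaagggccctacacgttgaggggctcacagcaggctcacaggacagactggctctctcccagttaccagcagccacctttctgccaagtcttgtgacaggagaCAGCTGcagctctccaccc
Dio2: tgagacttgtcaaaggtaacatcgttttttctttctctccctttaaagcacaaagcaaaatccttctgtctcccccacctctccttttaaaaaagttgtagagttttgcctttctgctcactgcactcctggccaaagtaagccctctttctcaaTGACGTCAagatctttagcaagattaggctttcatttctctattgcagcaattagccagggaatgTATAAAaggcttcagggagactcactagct

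These motifs were searched on both strands, and those in capitals do not overlap within a promoter. The E-box, searched as CANNTG, stood at 45 to 40 bases before the start in Fabp3. In Cox8b the match was CAGCTG, at 19 to 14 bases before the start. CANNTG is common, in 66.2% of 32851 promoter windows of this length, and CAGCTG was in 13% of them. TATTTA stood at 29 to 24 bases before the start of Fabp3 and was in 12.7% of windows. The Dio2 window held TGACGTCA at 95 to 88 bases before the start, a motif in 1.55% of windows, and TATAAA, in 12.4%, at 30 to 25 bases before it. The Fabp3 window was 64.8% G and C, against 47.2% in Cox8b, 41.6% in Dio2 and a median of 52.4% over all windows. The 3 windows shared no marked motif other than the E-box form in Fabp3 and Cox8b. CANNTG also stood in the windows of Ppargc1a and Cox7a1, which are not shown. A match is a description of the letters and not evidence of binding.

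Most member probe sets were dim. The probe sets of genes on the Y chromosome, which these females lack, reached at most 3.65 in any array, and this was taken as the level of probe sets without a transcript. Of the 13 member probe sets, 8 stayed under it in all 3 arrays and 5 were above it in all 3. Those 5 belong to Fabp3, Cox8b, Cox7a1 and, with 2 probe sets, Dio2. Only the Fabp3 probe set 1416023_at and the Cox8b probe set 1449218_at had a mean of at least 5 over the 3 arrays, the minimum for testing. The name of the set therefore fits the data only in part. Its defining brown fat gene Ucp1 was not above that level, and what could be measured were mainly the members shared with muscle, and Dio2.

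**Figure D1:**
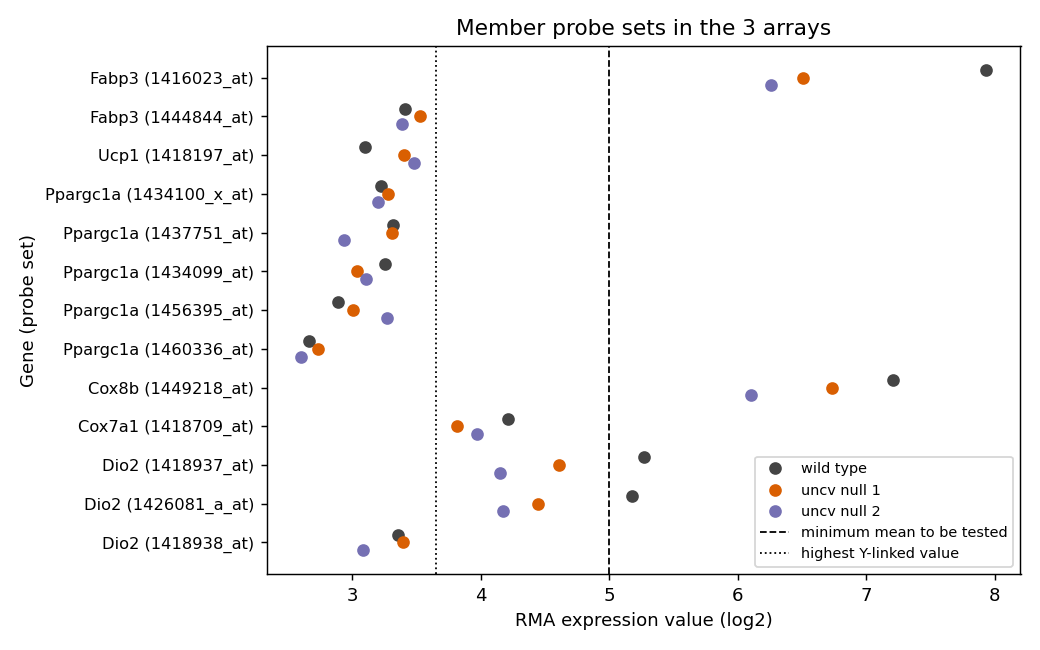
RMA expression values (log2, horizontal axis) of the 13 member probe sets (vertical axis), with 1 point for each array. The dotted line is the highest Y-linked value, 3.65, and the dashed line is the minimum mean of 5 for testing. The wild type point is the highest of the 3 for Fabp3 (1416023_at), Cox8b, Cox7a1 and 2 Dio2 probe sets, while the Ucp1 and Ppargc1a points all lie left of the dotted line.

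Fabp3 showed the widest difference of the set. Its probe set 1416023_at read 7.93 in wild type, 6.50 in null mouse 1 and 6.26 in null mouse 2. Both uncv null arrays lay well below wild type and within 0.24 of each other. The differences from wild type were -1.43 and -1.67, and their mean was -1.55 ± 0.27 (limma's moderated SE, 1 against 2 arrays), a level 2.93-fold lower. It did not pass the test over all 13559 tested probe sets (limma adjusted p = 0.9996, unadjusted p = 0.0014). By size alone, it was the single member probe set at least 1 log2 unit from wild type on the same side in both uncv null arrays, a rule met in the lower direction by 0.288% of tested probe sets. Counting itself, 25 tested probe sets had a mean difference as low. The gene's other probe set, 1444844_at, read 3.41, 3.53 and 3.39 in the same order and stayed under the Y-linked level, so it bears on neither direction. Averaging both probe sets would give a difference of -0.75.

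Cox8b, the heart and muscle form of subunit VIII that brown fat also uses, read 7.21 in wild type, 6.74 in null mouse 1 and 6.11 in null mouse 2. Wild type was highest, but the uncv null arrays lay farther from each other (0.63) than null mouse 1 lay from wild type (0.47). The mean difference was -0.78 ± 0.34, or 1.72-fold lower, and did not pass (limma adjusted p = 0.9996, unadjusted p = 0.064). The value rests largely on null mouse 2, with a difference of -1.10 there against -0.47 in null mouse 1. In all, 0 of the 2 tested member probe sets passed limma's adjusted threshold, where 0% of tested probe sets did so. At an unadjusted p under 0.05, Fabp3 stood among 2.88% of tested probe sets.

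Dio2 was lower in both uncv null arrays by both of its brighter probe sets. Probe set 1418937_at read 5.27 in wild type, 4.61 in null mouse 1 and 4.15 in null mouse 2, with a mean difference of -0.89. Probe set 1426081_a_at read 5.18, 4.44 and 4.17, with a mean difference of -0.87. The 2 probe sets gave the same order of arrays and nearly the same size, 1.86-fold and 1.82-fold lower, but they read the same RNA of the same 3 mice. The third, 1418938_at, read 3.35, 3.39 and 3.09, under the Y-linked level. Both brighter probe sets were at least 0.5 log2 units below wild type in both uncv null arrays. Among the 5829 probe sets of like brightness, with a mean from 4 to under 5, 2.21% were. They were too dim for the main test. With no minimum, limma gave Dio2 an unadjusted p of 0.013 for 1418937_at and 0.0080 for 1426081_a_at, and an adjusted p of 0.9999 for each.

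Cox7a1, the heart and muscle form of subunit VIIa, read 4.21 in wild type, 3.81 in null mouse 1 and 3.97 in null mouse 2. Wild type was again highest, by 0.40 and 0.24, but the values lay close to the Y-linked level, so that its size is uncertain. Without the minimum its mean difference of -0.32 had an unadjusted limma p of 0.19 and an adjusted p of 0.9999.

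Ucp1, the uncoupling protein that defines brown fat, read 3.10 in wild type, 3.40 in null mouse 1 and 3.48 in null mouse 2. All 3 values were under the Y-linked level of 3.65, and the wild type array was the lowest, so no size of difference is given. The 5 probe sets of Ppargc1a lay between 2.60 and 3.32 over all arrays, also under that level. No order of the arrays was common to them. The 13 member probe sets divided into 7 lower in both uncv null arrays, 2 higher in both and 4 split, where 30.1% of all probe sets were lower in both, but 8 of the 13 were those under the Y-linked level.

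Muscle genes are the first group to set beside these values, since Fabp3, Cox8b, Cox7a1 and Cpt1b are known from muscle too. In a bulk sample, fewer cells of a type and less RNA per cell cannot be told apart. Of 21 listed genes of slow, cardiac and embryonic muscle, 15 were tested. Of these, 14 were lower in both uncv null arrays and 1 higher, where 26.4% of all tested genes were lower in both and 38.8% higher. This list, like the others, was chosen with earlier results of these data known, so its counts are a description only. By limma 0 of the 15 passed (0 of 8456 tested genes did), and 9 had an unadjusted p under 0.05, as did 245 of all tested genes. The median difference was -1.47, at -1.07 in null mouse 1 and -1.87 in null mouse 2, against 0.04 over all tested genes. The summed signal of the list was 61.0% of wild type in null mouse 1 and 38.5% in null mouse 2. Fabp3, at 37.1% and 31.4% of wild type, was below both of these sums, and Cox8b, at 72.2% and 46.7%, above both.

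The 3 widest differences in that list belonged to Actc1, Myl4 and Myh3. Actc1, the cardiac actin also made by immature skeletal muscle, read 10.3 in wild type, 8.98 in null mouse 1 and 7.45 in null mouse 2. Myl4, an embryonic and atrial myosin light chain, read 9.67, 8.23 and 6.97. Myh3, embryonic myosin heavy chain, read 9.76, 8.89 and 6.57. In all of these null mouse 2 was lowest and wild type highest, the order also seen in Fabp3, Cox8b and Dio2. The tested member on the other side was Atp2a2, a calcium pump made in many cell types besides slow muscle, at 0.07. Myl2, Myl3, Myh6 and Myh7, the myosins of heart and mature slow fibres, were too dim to test. Among the dim genes of the list, Myl2 (3.35, 3.05 and 4.50), Ankrd1 (3.53, 3.45 and 4.51) and Myh7 (3.96, 3.82 and 4.12) were highest in null mouse 2. Chrng (3.91, 3.42 and 3.01) and Myl3 (3.65, 3.73 and 3.48) were lowest there, and Myh6 was highest in wild type.

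Fast muscle genes were lower by less. Of 18 tested genes 13 were lower and 3 higher in both uncv null arrays, with a median of -0.54 (-0.51 in null mouse 1 and -0.66 in null mouse 2), and 0 passed limma, while 8 had an unadjusted p under 0.05. Their summed signal was 70.2% and 65.9% of wild type. Tnnt3, fast troponin T, differed by -1.02 ± 0.26. Actn3 and Mybpc2, an actinin and a myosin-binding protein of fast fibres, lay on the other side, at 1.81 ± 0.44 and 1.46 ± 0.37. By mean difference Fabp3 and Cox8b were both lower than the fast list's median, and Fabp3 lay close to the median of the slow and embryonic list. For Cox8b this rests on null mouse 2. In null mouse 1 it was at -0.47, less low than the fast median of -0.51. Whether less muscle RNA accounts for the values of Fabp3, Cox8b or Dio2 was not tested.

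Brown adipocyte genes outside the set did not share a direction. Of 21 listed, 20 had a probe set, 9 lay above the Y-linked level in every array and 6 were tested. Of those 6, 2 were lower and 1 higher in both uncv null arrays and 3 were split, with a median of 0.17 (-0.13 in null mouse 1 and 0.41 in null mouse 2). Their summed signal was 91.5% of wild type in null mouse 1 and 154% in null mouse 2. By limma 0 of 6 passed, and 1 had an unadjusted p under 0.05. Cidea, a lipid droplet protein of brown fat that skin glands also make, read 7.21 in wild type, 6.97 in null mouse 1 and 8.39 in null mouse 2. Hspb7, a small heat shock protein known best from heart and muscle, read 5.65, 4.97 and 4.70, and Tmem26, a marker of beige fat, read 5.63, 5.62 and 4.08. Prdm16, a regulator that commits cells to the brown fat fate, read 3.62, 3.61 and 3.63, just under the Y-linked level. Elovl3, a fatty acid elongase of brown fat and skin glands, was at 7.91, 7.73 and 8.67. Zic1, a transcription factor of the brown fat lineage that was too dim to test, read 4.32, 4.22 and 5.995. The wild type array was thus not the highest for Cidea, Elovl3 or Zic1, which lay above it in null mouse 2 but slightly below it in null mouse 1. Hspb7 and Tmem26 had the order of Fabp3, Cox8b and Dio2, with wild type highest and null mouse 2 lowest. So did Acot11, too dim to test (4.17, 3.997 and 3.58), and Cited1 and Cpn2, both under the Y-linked level in every array. Pank1, the 1 tested gene higher in both uncv null arrays, had the reverse order, at 6.78, 6.98 and 7.44. So did Slc27a2, under the Y-linked level in every array (2.94, 2.96 and 3.36). Elovl3, Prdm16, Zic1, Acot11, Cited1, Cpn2, Pank1 and Slc27a2 are named after their values were seen.

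**Figure D2:**
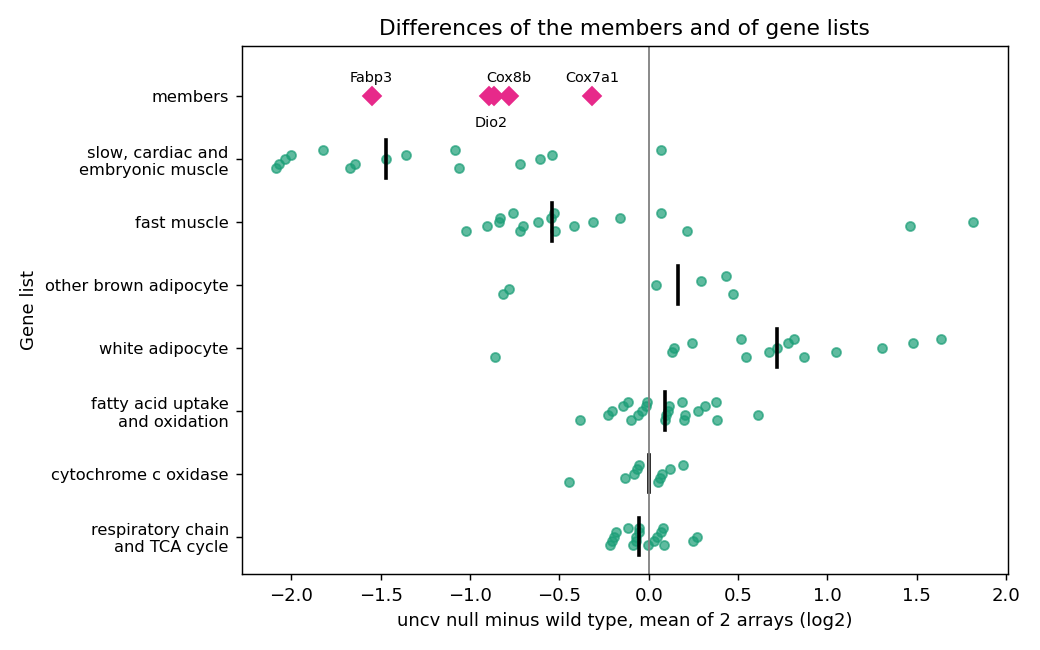
Mean difference of the 2 uncv null arrays from wild type (log2, horizontal axis) for the member probe sets above the Y-linked level (diamonds, 2 of them Dio2) and for every tested gene of 7 lists (circles), with the median of each list as a black bar. Fabp3 at -1.55 lies near the median of slow, cardiac and embryonic muscle genes (-1.47), and the medians of the other brown adipocyte genes (0.17) and of cytochrome c oxidase (0.00) lie near 0.

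White adipocyte genes went the other way from the member probe sets above the Y-linked level. Of 15 tested genes 14 were higher in both uncv null arrays and 1 lower, with a median of 0.72 (0.51 in null mouse 1 and 0.93 in null mouse 2). Their summed signal was 132% and 149% of wild type. By limma 0 of 15 passed, and 5 had an unadjusted p under 0.05. Retn, the adipokine resistin, read 6.49 in wild type, 7.24 in null mouse 1 and 9.02 in null mouse 2. Plin4, a lipid droplet coat protein, differed by 1.48 ± 0.35 and Pck1, which makes the glycerol backbone of stored fat, by 1.30 ± 0.32. The exception was Npr3, the natriuretic peptide clearance receptor, which several other cell types make too, at -0.86 ± 0.28.

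Fuel oxidation genes that most cell types share stayed near wild type. Of 22 tested genes of fatty acid uptake and oxidation, 4 were lower than wild type and 10 higher in both, and the median was 0.09 in a range from -0.38 to 0.61. Slc27a4, a fatty acid transporter of epidermis and gut, was at 0.61 ± 0.28, Decr1, an enzyme for unsaturated fatty acids, at -0.38 ± 0.36, and Cpt2, the inner-membrane partner of Cpt1b, at 0.38 ± 0.27. Of 18 other genes of the respiratory chain and TCA cycle, 6 were lower and 6 higher, with a median of -0.06 and a range from -0.21 to 0.27. Ogdh at 0.27, Cs at 0.25 and Atp5b at -0.21, all mitochondrial enzymes, were the widest. By limma 0 genes of either list passed, and 0 had an unadjusted p under 0.05.

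Cytochrome c oxidase allows a comparison within 1 complex, because some subunits come in a heart and muscle form and a form made in most tissues. The 10 tested subunits outside the set had a median of 0.00, with 3 lower and 5 higher in both arrays, and none had an unadjusted limma p under 0.05 (0 passed after adjustment). The widest difference was that of Cox6a2, the heart and muscle form of subunit VIa, at -0.45 ± 0.29, with values of 7.60, 7.33 and 6.98 in wild type, null mouse 1 and null mouse 2. Its partner form Cox6a1 was at 0.12. Cox8a, the partner of Cox8b, was at -0.34 in null mouse 1 and 0.18 in null mouse 2. Cox7a2, the partner of Cox7a1, was at 0.05 in each uncv null array. Subtracting the partner's difference in the same array left -0.13 and -1.28 for Cox8b in null mouse 1 and null mouse 2, -0.45 and -0.29 for Cox7a1, and -0.41 and -0.73 for Cox6a2. All 3 heart and muscle forms were lower relative to their partners in both uncv null arrays, though for Cox8b barely so in null mouse 1. Cox7a1 lay close to the Y-linked level and was too dim to test, so the size of its contrast is uncertain. These contrasts between isoforms were not tested. Cox6b1, at 0.19, and Cox6c, at -0.13, were the next widest of the list.

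Regulators upstream of the set gave no common direction. Of 9 tested partners of Ppargc1a and genes of mitochondrial biogenesis, 3 were lower than wild type and 4 higher in both. The median was -0.08, and 0 passed limma. Mef2c, a transcription factor of muscle and other tissues that works with Ppargc1a, was the lowest. It read 8.26 in wild type and 7.44 in both uncv null arrays (difference -0.82 ± 0.26). By limma its unadjusted p was 0.020 and its adjusted p was 0.9996. Ppard, a nuclear receptor for fatty acids, was at 0.59 ± 0.26 and Ppargc1b, the relative of Ppargc1a, at 0.23 ± 0.30. Of 8 tested adrenergic and thyroid hormone genes, 4 were lower and 2 higher, with a median of -0.13, and 0 had an unadjusted p under 0.05 by limma (0 passed). Prkaca, the catalytic subunit of protein kinase A, was at -0.49 ± 0.36, Gnas, the G protein subunit that stimulates cyclic AMP, at -0.39 ± 0.28, and Prkar2b, a regulatory subunit of the kinase, at 0.26 ± 0.27.

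The relatives of Fabp3 in fat and epidermis lay slightly above wild type. Of 12 other fatty acid-binding and uncoupling proteins, 2 were tested. Fabp4, the form of white and brown fat cells, read 10.8 in wild type, 10.9 in null mouse 1 and 11.0 in null mouse 2, and Fabp5, the epidermal form, read 11.3, 11.5 and 11.5. Fabp3 thus differed from wild type on the other side from both (-1.55 against 0.13 ± 0.26 and 0.19 ± 0.26), and the contrast between the genes was not tested. Of 9 relatives too dim to test, 3 (Pmp2, Fabp7 and Ucp3) had the array order of Fabp3, with wild type highest and null mouse 2 lowest, and 6 had another order. Ucp3, the uncoupling protein of skeletal muscle, read 4.05 in wild type, 3.80 in null mouse 1 and 3.65 in null mouse 2, the last at the Y-linked level. Pmp2, the form of peripheral myelin, read 4.84, 4.32 and 3.79, and Fabp7, known from glia, read 4.08, 3.50 and 3.16. Slc25a14, a mitochondrial carrier related to Ucp1, was above the Y-linked level in every array without that order, at 4.80, 4.84 and 4.74. These dim relatives are named after their values were seen.

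**Figure D3:**
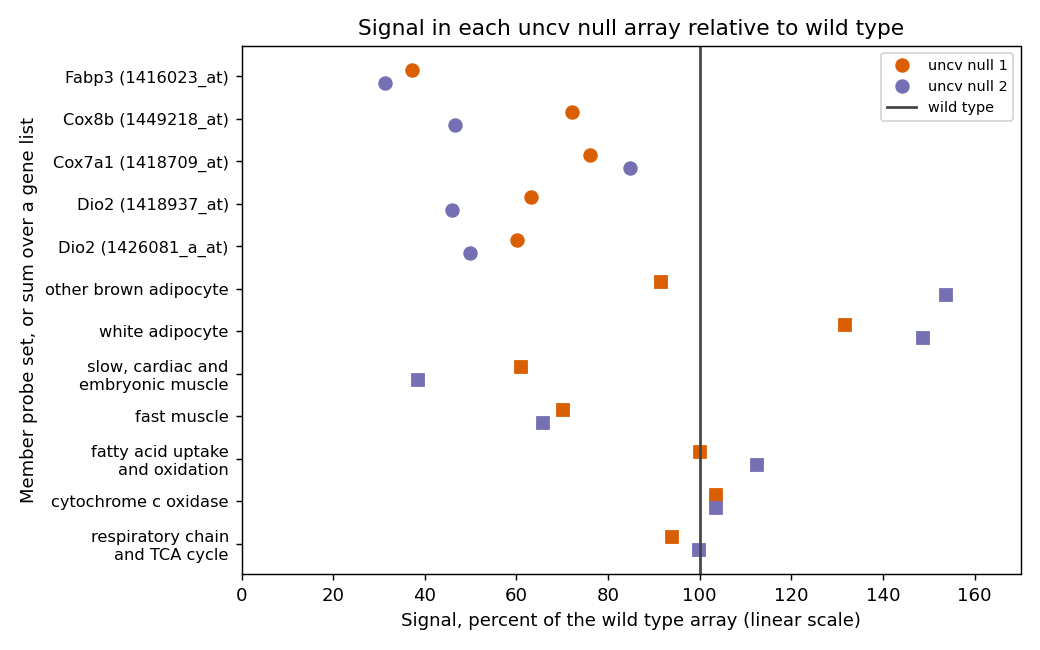
Signal in null mouse 1 and null mouse 2 as a percentage of the wild type array (linear scale, vertical line at 100) for the 5 member probe sets above the Y-linked level (circles) and for the summed signal of the tested genes of 7 lists (squares). Fabp3 lies at 37.1% and 31.4% and slow, cardiac and embryonic muscle genes at 61.0% and 38.5%, while white adipocyte genes lie at 132% and 149%.

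Genes with the pattern most like a member were found by the distance between their 2 differences from wild type and the member's, over the 3 arrays. They were sought among the 8456 tested genes, skipping those with only a clone, accession or predicted-gene name. For Fabp3 they were Coch, an extracellular matrix protein, Tnnt2, cardiac troponin T, Mbp, myelin basic protein, Dhrs7c, an enzyme of the sarcoplasmic reticulum, and Epha3, an ephrin receptor, at distances from 0.05 to 0.35 log2 units. Coch was nearest, with differences of -1.40 in null mouse 1 and -1.70 in null mouse 2. Of the 5, Tnnt2 and Dhrs7c are known from striated muscle and Mbp from Schwann cells. For Cox8b they were Scarf2, Mlf1, Sfrp4, Thbs3 and Bex1, at distances from 0.01 to 0.07. Of these Mlf1 is known from muscle among other tissues, and Sfrp4 and Thbs3 encode secreted proteins. With 3 arrays a likeness of this kind is a description only.

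Beside these results, the arrays were not alike in their control probe sets. The mean of 3 probe sets for 18S ribosomal RNA was 3.59 for the wild type mouse, 7.93 for null mouse 1 and 4.26 for null mouse 2. Signal at the 3' end of Actb exceeded that at its 5' end by 0.66, 1.23 and 0.79. Both measures were highest in null mouse 1, and both were also higher in null mouse 2 than in wild type. Fabp3, Cox8b and the brighter Dio2 probe sets were lowest in null mouse 2, and Cox7a1 was lowest in null mouse 1. With null mouse 1 left out, the differences were -1.67 for Fabp3, -1.10 for Cox8b and -1.12 and -1.004 for Dio2, as differences of single arrays with no test. The part of RNA quality in these values was not tested.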

How the data were processed

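Values deposited by the authors are log2 expression values made with RMA, the tool named per the submitters' processing notes. Its software and background model are not given in those notes. The platform annotation paired 34945 of 45037 probe sets with 1 gene, 932 with several and 9160 with none. Another 64 control probe sets stayed out of the tests.

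The 13559 probe sets with a mean of at least 5 over the 3 arrays, whatever number of genes they were paired with, entered limma 3.58.1. It was run under R 4.3.3 (lmFit and eBayes, Benjamini-Hochberg over all of them, threshold 0.05, two-sided). Those paired with 1 gene covered 8456 genes, called the tested genes. The 1 residual degree of freedom was moderated by 4.75 prior ones. The wild type array is thereby given the spread of the other 2. The labels number the null samples and the design text calls them mice. The p-values rest on the spread between their 2 arrays, moderated toward that of all tested probe sets. They hold no spread among wild type mice. Each gene was represented by its brightest single-gene probe set. RMA fixes a common distribution, so a shift of all transcripts would not show. The number of arrays limits the precision.

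The fit was tested on simulated data whose changes were wider than the difference of any member. That check does not bear on differences of the members' size. Named genes were all members, the 3 tested genes of each list with the widest mean difference, and the 5 genes nearest to each tested member, clone-type names skipped. Others were chosen after their values were seen. Members and lists were chosen with earlier results of these data known. Alternatives were other minimum means, normalizations, variance models, thresholds and probe set rules, and leaving out each uncv null array.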

Additional observations from a re-analysis of the deposited data

How the results depend on the processing

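In every setting run, 0 member probe sets passed limma's adjusted threshold. At a minimum mean of 7 no member was bright enough to test, so the count past 2-fold was 0. Leaving out 1 null mouse left differences of single arrays with no test, so no count past 2-fold is given for it. Fabp3 stayed lower in all settings, from -1.67 to -1.43 with 1 probe set and at -0.75 as the mean of its probe sets, since the dim 1444844_at enters that mean. Of the other 10 alternatives for single members that kept both null mice, only centring and cyclic loess could move a value. A changed minimum keeps the same probe set, and Cox8b has 1 probe set to average. Fabp3 was at -1.58 with centred arrays and -1.59 with cyclic loess, and Cox8b at -0.81 and -0.82. These shifts were smaller than the SD of the null mice. The muscle and white adipocyte lists kept their signs, and the fast muscle median was -0.66 at a minimum mean of 7.

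Medians near 0 have no settled direction. For partners of Ppargc1a and mitochondrial biogenesis the median was -0.13 with no minimum, -0.15 at a minimum of 4, -0.16 at 7, -0.11 with centred arrays, -0.11 with cyclic loess and -0.042 with the mean of probe sets. For cytochrome c oxidase it was -0.029 with centred arrays and -0.024 with the mean of probe sets, for skin markers -0.14 with centred arrays, -0.070 with cyclic loess and 0.0084 with the mean of probe sets. That mean gave 0.011 for the respiratory chain and TCA cycle and 0.015 for adrenergic and thyroid genes, which reached -0.30 at a minimum of 7. The other brown adipocyte list turned to -0.01 with no minimum.

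Leaving out null mouse 1 or null mouse 2 gave median ranges of -0.66 to -0.51 for fast muscle, 0.030 to 0.050 for cytochrome c oxidase, -0.033 to 0.052 for the respiratory chain and TCA cycle, 0.018 to 0.058 for partners of Ppargc1a, -0.11 to -0.086 for skin markers and 0.025 to 0.066 over all tested genes. The cause of these shifts was not tested. No paired analysis was possible because the wild type group has 1 sample and its label has no replicate number.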
